A study of Mus musculus with 4 samples.

Results

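Type 1 conventional dendritic cells (cDC1s) of mouse brown adipose tissue (BAT) were picked from single-cell RNA sequencing by the transcripts that mark them. A cell counted as a cDC1 if it held at least 2 UMIs (unique molecular identifiers, each standing for 1 captured RNA molecule) of Xcr1, Clec9a and Ifi205 together, at least 1 of them from Xcr1 or Clec9a. It also needed at least 30 UMIs of the MHC class II genes H2-Aa, H2-Ab1, H2-Eb1 and Cd74 per 10000, under 5 per 10000 of the macrophage genes C1qa, C1qb and C1qc, and under 30 per 10000 of the stromal genes Col1a1, Col1a2, Col3a1, Dcn and Gsn. Of 28887 cells within the quality limits, 117 met this rule. These genes chose the cells, so their levels below are a description and no finding.

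The cells came from the stromal vascular fraction (SVF), the cells left once BAT is digested and the floating adipocytes are taken off. There were 4 libraries on the C57BL6/J background: untreated wild-type mice of 10 weeks (WT), leptin receptor mutants (db/db, labelled DBDB) of 8 weeks, called DBDB 8w, and of 16 weeks, called DBDB 16w, and wild-type mice on a high-fat diet (HFD) whose label gives 10 weeks, the age at which the study began 10 weeks of the diet. The mutants carry the defect in every cell and overeat, so obesity and diabetes develop together in them. By the study each library was a pool of 3 male mice, so there was 1 library per group, no difference between groups could be tested, and each 95% interval below covers counting error only, not the spread between mice.

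The libraries differed in ways that bear on every comparison. The DBDB 16w library held Xist, the RNA of the inactive X chromosome, at 207 CPM (UMIs of a gene per 1000000 UMIs of its cells) against at most 0.688 in the other libraries, and Y-linked genes at 17.7 CPM against 164 to 188, which goes against the study's account of male mice, and 6 of its 16 cDC1s held Xist. Cells over the limit of 15% mitochondrial UMIs made up 68.5% of the HFD barcodes, against 28.0% in WT, 35.6% in DBDB 8w and 1.04% in DBDB 16w. Median UMIs per cDC1 were 12766 in WT, 7292 in DBDB 8w, 4790.5 in DBDB 16w and 5694 in HFD, so the WT cells were read most deeply. All pairs of libraries together shared 269 barcodes, none of them of a cDC1.

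cDC1s are the dendritic cells that take up dying cells and show their antigens on MHC class I to CD8 T cells, a process called cross-presentation. They depend on the transcription factors Irf8 and Batf3 and on the growth factor receptor Flt3, and they carry Xcr1, the receptor for a chemokine made by NK and CD8 T cells, and Clec9a, which binds actin filaments exposed by dead cells. Type 2 conventional dendritic cells (cDC2s), their sister subset, mainly prime CD4 T cells. When a dendritic cell matures it raises Ccr7, the receptor that leads it to the lymph node.

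Naaa and Flt3, cDC1 markers that the rule did not use, were high in these cells. Naaa, an enzyme that breaks down fatty acid ethanolamides, stood at 500 CPM in WT, 674 in DBDB 8w, 693 in DBDB 16w and 701 in HFD cDC1s, against 44.4 to 69.8 CPM in all other cells of the same libraries. Flt3 stood at 44.1 CPM in WT, 78.7 in DBDB 8w, 166 in DBDB 16w and 131 in HFD, against 0.668 to 3.26 CPM in the other cells. Both genes were thus far above the rest of the SVF in every library.

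The other markers followed. Naaa was seen in 105 and Irf8 in 100 of the 117 cells, and 111 held either. In WT, 9 of 11 cDC1s held Irf8 at a median of 12766 UMIs per cell, against 43 of 3972 stromal cells (1.08%) at a median of 7274 UMIs. Macrophages also use Irf8, and 51.7% of those in WT held it at a median of 6406 UMIs. Wdfy4, which cross-presentation requires, was read at 404, 399, 347 and 626 CPM in WT, DBDB 8w, DBDB 16w and HFD, against 3.01 to 20.1 CPM elsewhere. Itgae, the CD103 integrin, stood at 140 CPM in WT, 73.8 in DBDB 8w, 55.5 in DBDB 16w and 36.3 in HFD, from 19, 15, 4 and 13 UMIs. The 13 cDC1 markers that the rule did not use summed to 3578 CPM in WT, 3607 in DBDB 8w, 3994 in DBDB 16w and 3748 in HFD, and to between 202 and 354 CPM in the other cells.

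Markers of other cells varied by list. The 7 macrophage markers outside the rule, which itself limits C1q, summed to 169 CPM in WT, 172 in DBDB 8w, 27.7 in DBDB 16w and 444 in HFD cDC1s, against at least 3253 CPM in the remaining cells. The T cell list summed to 0 CPM in 3 libraries and 2.79 in HFD, with Cd3d, Cd3e, Cd3g and Lat at 0, and the B cell list to 0 in 3 and 8.38 in HFD. The 5 plasmacytoid markers summed to 162, 128, 55.5 and 168 CPM, from Bst2, Tcf4 and Ccr9, with the defining Siglech and Ly6d at 0. The 5 monocyte markers, nearly all of it Ccr2 and Plac8, summed to 551 CPM in WT, 246 in DBDB 8w, 388 in DBDB 16w and 400 in HFD, and in DBDB 16w this was above the other cells (247). Endothelial RNA stood apart. Cldn5, Pecam1, Cdh5 and Egfl7 summed to 0 CPM in WT and DBDB 8w, 13.9 in DBDB 16w and 277 in HFD cDC1s, and the fifth marker of the list, Fabp4, which is also a lipid gene, brought the HFD sum to 3175 CPM. In all, 11 of 61 HFD cells, but none of the others, held at least 2 UMIs of the 4 genes. The HFD cells that were not cDC1s read 1180 CPM of these 4 genes. HFD results were therefore also computed without those 11 cells.

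Xcr1 (GRCm38 chromosome 9, 123852315 to 123862029, minus strand) was seen in 77 of the cells, Clec9a (chromosome 6, 129408862 to 129424763, plus strand) in 101, both in 61 and Ifi205, which belongs to a family of similar genes, in 85. At the edge of the rule, 32 cells held exactly 2 marker UMIs, and 48 further cells with 1 UMI of Xcr1 or Clec9a met all other limits and were left out, 1 from WT, 5 from DBDB 8w, 12 from DBDB 16w and 30 from HFD. The lowest MHC class II level inside was 32.5 per 10000. The highest C1q level inside was 4.65 per 10000 and the lowest among those left out for it 5.33.

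Genes outside every list also set the cells apart, chosen here after their values were seen and given without a test. Sept3, a septin, was 262-fold above the other cells, at 382 CPM in WT, 354 in DBDB 8w, 361 in DBDB 16w and 207 in HFD. Hepacam2, P2ry10, Jaml and Plbd1 followed at 132-fold, 42.9-fold, 39.4-fold and 42.7-fold over all libraries. Each of these 5 genes was at least 25.6-fold above the other cells in every library.

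The first question was how many cDC1s BAT holds in lean and obese mice. They made up 11 of 5944 cells in WT (0.185%, exact Clopper-Pearson 95% interval 0.0924 to 0.331), 29 of 11648 in DBDB 8w (0.249%, 0.167 to 0.357), 16 of 5833 in DBDB 16w (0.274%, 0.157 to 0.445). In HFD they made up 61 of 5462 cells (1.12%, 0.855 to 1.43). The HFD share was the highest, and its interval overlapped none of the others. It lay 0.932 percentage points above WT (0.632 to 1.26), a 6.03-fold difference (3.15 to 12.7), and 4.49-fold above DBDB 8w and 4.07-fold above DBDB 16w. The db/db shares differed from WT by 0.0639 points (-0.103 to 0.207) at 8 weeks and 0.0892 points (-0.0980 to 0.284) at 16 weeks, so no difference was detectable there at this number of cells.

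**Figure D1:**
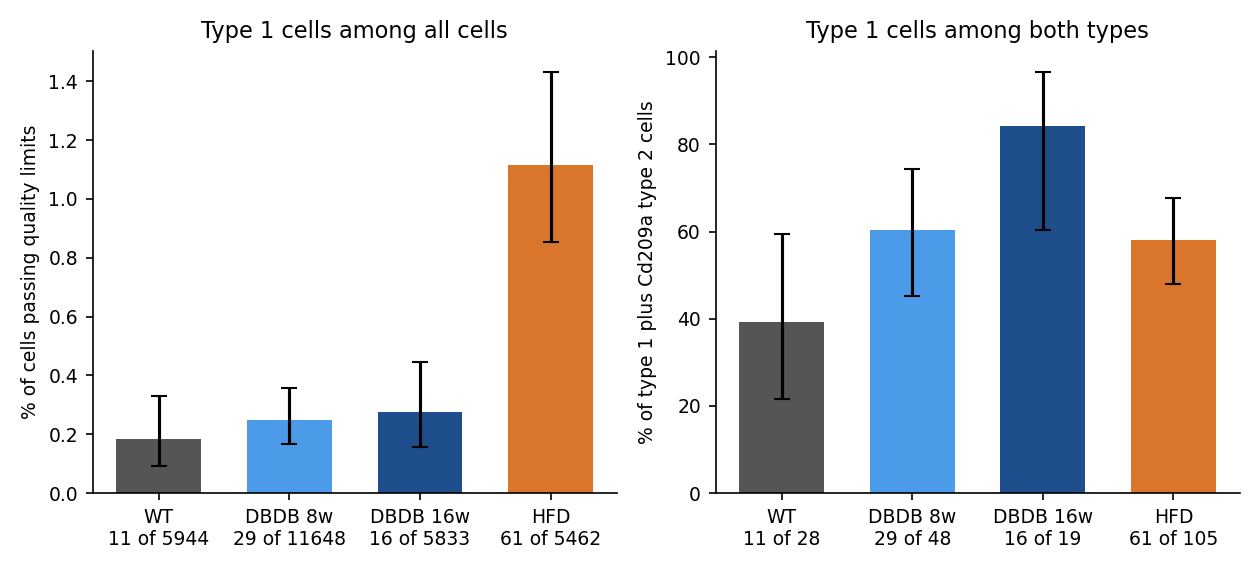
Left, cDC1s as a percentage of the cells passing the quality limits; right, cDC1s as a percentage of cDC1s plus Cd209a cDC2s, with 1 bar per library, its counts under it and exact 95% binomial intervals as error bars. The HFD bar stands at 1.12% on the left, above the other 3, and the WT bar is the lowest on the right at 39.3%.

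The size of the HFD difference moved with the counting. Once every cell was thinned to 1000 UMIs before the rule was applied, 11 of 5453 HFD and 1 of 5724 WT cells remained, a difference of 0.184 points (0.0555 to 0.344), and at 2000 UMIs it was 0.169 points (-0.0134 to 0.366). With barcodes over the mitochondrial limit counted too it was 0.268 points (0.122 to 0.397), from 72 of 17410 HFD and 11 of 7559 WT barcodes. Without the 11 cells with endothelial RNA it was 0.730 points. The part that depth and mitochondrial content have in the HFD share was not tested.

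Against leukocytes alone HFD was again the highest. Among cells with a UMI of Ptprc, the CD45 gene of all leukocytes, cDC1s made up 0.920% in WT, 0.757% in DBDB 8w, 0.623% in DBDB 16w and 2.20% in HFD. HFD lay 1.28 points above WT (0.335 to 2.10), a 2.39-fold difference (1.20 to 5.26), and the differences of DBDB 8w and DBDB 16w from WT were -0.163 (-0.972 to 0.429) and -0.297 (-1.13 to 0.409) points, both with intervals that include 0.

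Next to their sister subset, the share of cDC1s was lowest in WT. cDC2s, taken by at least 2 UMIs of Cd209a with the same limits and no Xcr1 or Clec9a, numbered 17 in WT, 19 in DBDB 8w, 3 in DBDB 16w and 44 in HFD. cDC1s were 39.3% of both types in WT (21.5 to 59.4), 60.4% in DBDB 8w (45.3 to 74.2), 84.2% in DBDB 16w (60.4 to 96.6) and 58.1% in HFD (48.1 to 67.7). The excess over WT was 44.9 points in DBDB 16w (13.8 to 66.6), and it was 21.1 (-4.07 to 43.6) in DBDB 8w and 18.8 (-3.69 to 39.0) in HFD, where the intervals include 0. Thinned to 2000 UMIs, HFD stood at 46.9% and WT at 46.2%, and the DBDB 16w excess was 53.8 points (-22.5 to 80.8). At 1000 UMIs that excess was 33.3 points (-47.6 to 79.3), so it was not detectable at matched depth.

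cDC1s were then compared with cDC2s in the 4 libraries, the only comparison with replicates, although the 4 libraries come from different conditions. The cDC2 sum of DBDB 16w came from 3 cells with 16450 UMIs, so that 1 UMI in it is 60.8 CPM. UMIs were summed per library and cell type and fitted with a library term by edgeR's quasi-likelihood test. Of 2288 genes tested, 194 were higher in cDC1s (8.48%) and 175 lower (7.65%), together 16.1%, at a Benjamini-Hochberg adjusted p under 0.05, and the median log2 fold change of all genes was 0.02. Genes of either rule were left out of these calls. Of the 9 cDC1 markers tested, 8 were higher, Naaa (2.06) and Flt3 (1.29) among them, the latter not called without DBDB 8w (0.94) or DBDB 16w (1.27), and Batf3 was not called (log2 fold change 0.46, SE 0.324). Of 5 cDC2 markers, Mgl2, Itgam, Clec10a and Sirpa were lower and Ccr2 was not called.

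Irf8, the factor that fixes the cDC1 fate, had the largest difference. It stood at 992 CPM in WT, 891 in DBDB 8w, 832 in DBDB 16w and 646 in HFD cDC1s, and the cDC2s of the 4 libraries held 2 UMIs of it in all. Irf8 was thus high in each cDC1 sum and near 0 in each cDC2 sum (log2 fold change 7.69, SE 0.436, edgeR adjusted p = 3.59e-13). With so few cDC2 UMIs the fitted size depends on the prior count.

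Among the 10 genes with the largest rise were also Sept3 (log2 fold change 6.25), Cadm1 (4.24), an adhesion molecule of cDC1s, Havcr2 (4.10), which encodes TIM-3, and Wdfy4 (3.76). Ppt1, a lysosomal thioesterase, reached 485 CPM in WT, 472 in DBDB 8w, 888 in DBDB 16w and 551 in HFD cDC1s, against 32.9 to 122 CPM in cDC2s. The groups did not overlap for Ppt1 (log2 fold change 3.47, SE 0.284, edgeR adjusted p = 5.34e-10). Trim35, Tnni2 and Btla, an inhibitory receptor of lymphocytes and dendritic cells, followed with log2 fold changes of 2.98 to 3.23.

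The 10 genes with the largest fall were Mgl2 (-6.25), Clec4a3 (-5.39), Mrc1 (-4.76), Sdc4 (-4.70), Abca9 (-4.64), Tmem176a (-4.64), Fcgr3 (-4.55), Cybb (-4.46), Ptgs2 (-4.44) and Pltp (-4.38). Mgl2, Clec4a3 and Mrc1 are C-type lectins and Fcgr3 is an activating Fc receptor. Cybb, the catalytic subunit of the phagocyte oxidase, stood at 73.5 CPM in WT, 9.84 in DBDB 8w, 0 in DBDB 16w and 27.9 in HFD cDC1s. In cDC2s it stood at 1062, 612, 608 and 535 CPM, above every cDC1 value (SE 0.332, edgeR adjusted p = 1.01e-10).

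**Figure D2:**
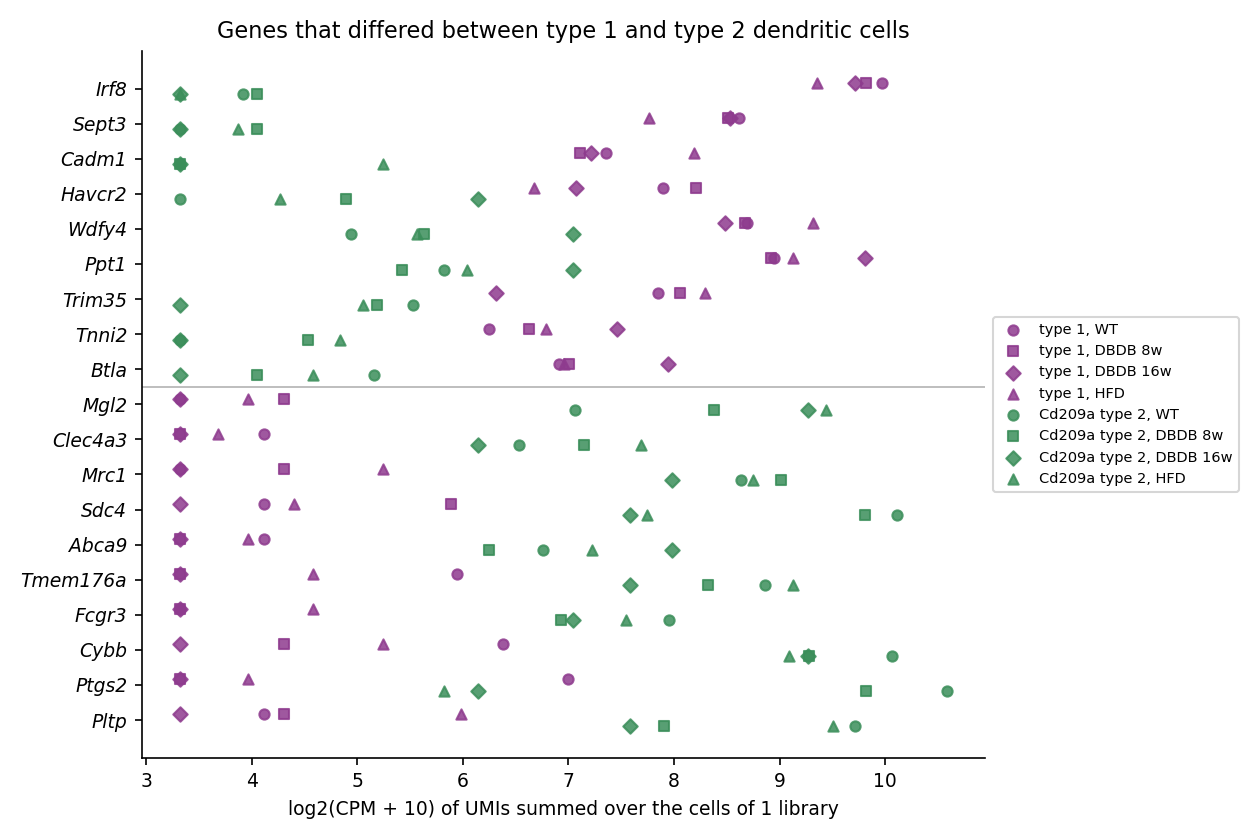
Levels of the named genes with the largest rises (above the line) and the 10 with the largest falls (under it) between cDC1s and cDC2s, as log2(CPM + 10) of the UMIs summed over the cells of 1 library; purple is cDC1, green is cDC2 and each marker shape is a library. The purple and green points of each gene are separate within every library, as the choice of these genes required. The green points of DBDB 16w rest on 3 cells.

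Part of the machinery of cross-presentation was higher in cDC1s. Of 15 tested genes of the cross-presentation and MHC class I list, 7 rose and none fell, against 8.48% and 7.65% of all genes. The list median was 0.84 against 0.02 for all genes. Other fits gave 5 to 7 rises and no fall, with 5 rises among 13 tested without HFD. The immunoproteasome subunits Psmb8 and Psmb9 rose by 1.74 (SE 0.25) and 1.97 (SE 0.289) on the log2 scale, the proteasome activator Psme1 by 1.58 and the peptide transporter subunit Tap2 by 2.55. Rab43, a GTPase that cDC1s need for cross-presentation, rose by 1.10, and Wdfy4 and Tap1 (1.24) were the other two. Tap1 lost its call without DBDB 8w (1.13), DBDB 16w (1.19) or HFD (0.81). The class I heavy chains H2-D1 and H2-K1, whose reads can be shared with other class I genes, and B2m were not called (-0.35, -0.23 and -0.18).

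Genes of peptide loading onto class II were split. Cst3, the protease inhibitor cystatin C, stood at 13791 CPM in WT, 15934 in DBDB 8w, 19293 in DBDB 16w and 15997 in HFD cDC1s, against 2166, 2594, 4802 and 2816 CPM in cDC2s. Each cDC1 value was well above its cDC2 value (log2 fold change 2.60, SE 0.108, edgeR adjusted p = 2.83e-16). The endosomal enzymes Lgmn (-1.10), Ctss (-0.95) and Ifi30 (-0.89) were lower. This made 1 rise and 3 falls among 9 tested, against 8.48% and 7.65% of all genes. The calls depended on the fit and on the libraries in it. Falls numbered 0 with another test, DESeq2, and with no library term, and up to 4 in other fits. Without HFD none of the 3 was called (Lgmn -1.10, Ctss -0.73 and Ifi30 -0.56). Without WT, Lgmn (-1.23) and Ctss (-0.78) lost theirs, without DBDB 8w Lgmn (-0.98) and without DBDB 16w Ifi30 (-0.86).

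Other groups separated both subsets as well, next to 8.48% of all genes higher and 7.65% lower. Of the phagocyte oxidase, Cybb and Cyba (-0.64) were lower, the latter not called without WT (-0.65), DBDB 8w (-0.59) or HFD (-0.45). Of 6 cytokine and chemokine genes, Il1b (-1.50), Ccl6 (-1.73) and Ccl9 (-3.41) were lower and none was higher. Of 11 transcription factors, Irf8, Id2 (2.12) and Cbfa2t3 (0.92) were higher and Zeb2 (-3.87), a factor of cDC2s and monocytes, was lower. Cbfa2t3 lost its call without WT (0.83) or DBDB 8w (0.90). Csf1r, the macrophage growth factor receptor, was lower (-4.30).

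Lipid and lysosomal genes were lower in cDC1s for 5 of 10 tested, against 7.65% of all genes. The lipase Lpl (-2.12) and cathepsin D, Ctsd (-1.87), were among them. Cd9 (1.08) was higher, but it was not called without WT (1.05) or HFD (0.95). The number of falls was 2 without DBDB 8w or HFD, 3 without WT and 4 without DBDB 16w. Of 9 maturation genes, Ccl22 (-1.28) and Marcksl1 (-1.94) were lower, but Ccl22 held at most 10 UMIs in any cDC1, and the list gave 1 fall without WT or DBDB 8w and 3 without HFD. None of 7 glycolysis genes, 11 oxidative phosphorylation genes and 10 immediate-early genes was called, where 615 of the 2288 genes had an unadjusted p under 0.05.

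The second question was how cDC1s differ between lean and obese mice. With 1 library per group, a gene was called higher or lower if its summed level differed at least 2-fold from WT on the log2(CPM + 10) scale, among genes with at least 30 UMIs in both libraries together, with no test. In DBDB 8w, 65 of 1413 genes were higher (4.6%) and 70 lower (4.95%), together 9.55%. In DBDB 16w, 75 of 794 were higher (9.45%) and 203 lower (25.6%), together 35%, and in HFD 213 of 2200 were higher (9.68%) and 128 lower (5.82%), together 15.5%. The median log2 ratios of all genes were 0.01, -0.21 and 0.09. With TMM scaling the DBDB 16w counts became 113 higher and 171 lower, the higher share of the calls moved from 27.0% to 39.8%, and the median became 0.00, so each DBDB 16w ratio is to be read against -0.21. The 3 comparisons share the WT cells, of which there are 11, and the values of each are given side by side. A gene can reach 30 UMIs through 1 library alone, the one where it is high. Counts of calls by list are therefore a description and no support.

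**Figure D3:**
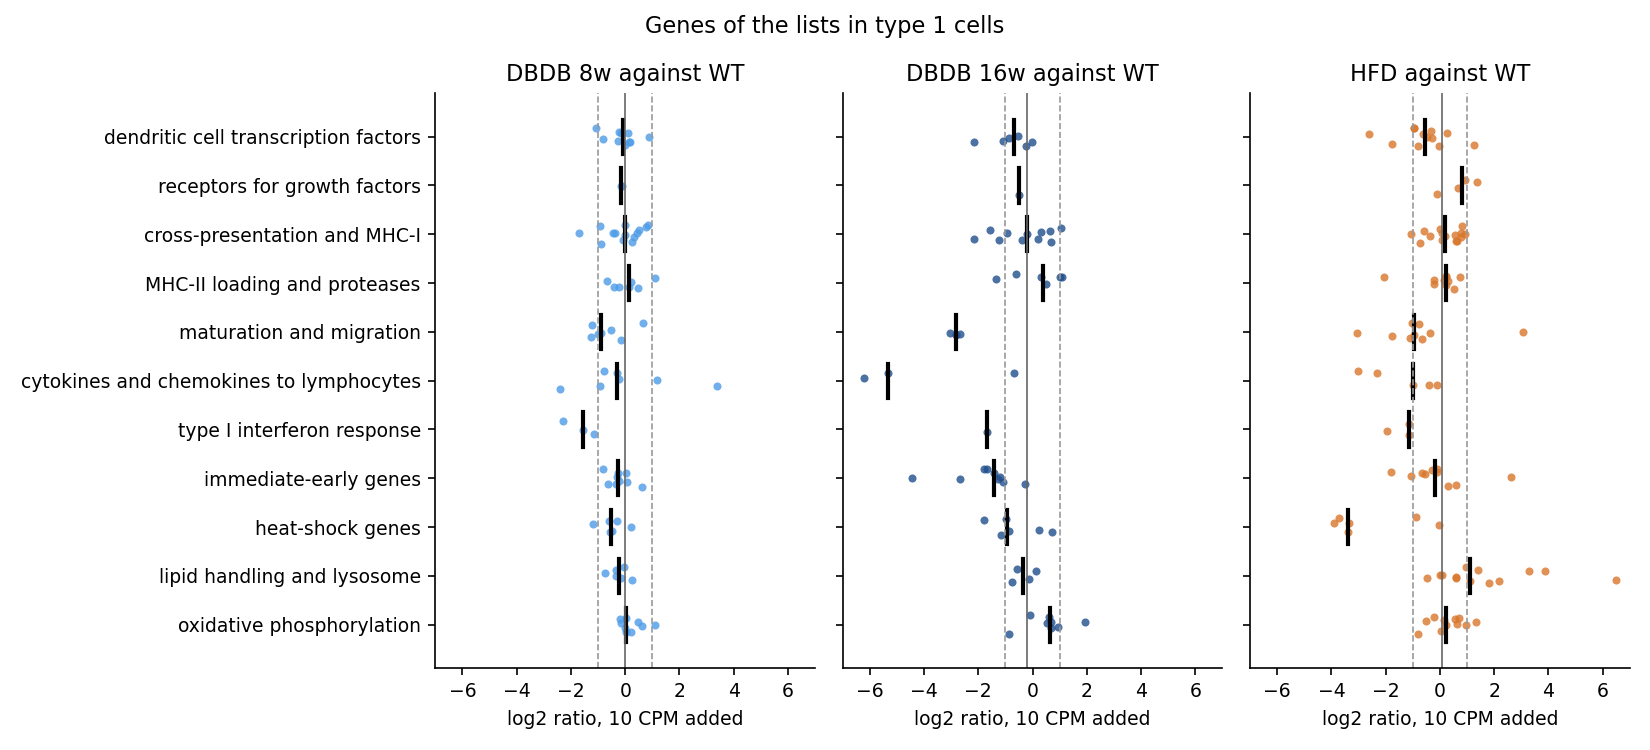
Log2 ratio to WT in cDC1s (10 CPM added) for genes with at least 30 UMIs, by list; each point is a gene, the black bar is the median of the list, the gray line the median of all genes and the dashed lines mark 2-fold. Heat-shock genes lie far to the left in HFD (median -3.38) and lipid genes to the right in HFD (1.10). Maturation genes lie far to the left in DBDB 16w (-2.82), where only 3 were measured.

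Id2, which holds back other lineages and is needed for cDC1s to form, was the transcription factor with the largest change in HFD. It stood at 1874 CPM in WT, 1580 in DBDB 8w, 1304 in DBDB 16w and 299 in HFD cDC1s, from 255, 321, 94 and 107 UMIs. The HFD level was the lowest by far, while the 3 other libraries lay closer together. The log2 ratio of the UMIs in HFD to WT was -2.65 (conditional binomial 95% interval -2.99 to -2.32). It was -0.25 (-0.49 to -0.0032) in DBDB 8w and -0.52 (-0.88 to -0.18) in DBDB 16w. Single cells showed the same: the median was 17.8 UMIs of Id2 per 10000 in WT, 15.1 in DBDB 8w, 11.9 in DBDB 16w and 1.54 in HFD.

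Id2 (GRCm38 chromosome 12, 25093799 to 25097140, minus strand) kept a log2 ratio between -2.77 and -2.59 in HFD under all settings tried. In the remaining cells it stood at 141 CPM in WT, 251 in DBDB 8w, 128 in DBDB 16w and 119 in HFD, a far smaller step from WT to HFD. In cDC2s it fell from 382 CPM in WT to 88.5 in HFD, with 566 in DBDB 8w and 0 UMIs in the 3 cells of DBDB 16w. Of 12 transcription factors measured in HFD, 2 were lower, Id2 and Zeb2 (20 UMIs in WT, 13 in HFD), against 5.82% of all genes. Klf4 alone was higher, at 345 CPM in WT and 841 in HFD, against 9.68% of all genes. With at least 3 marker UMIs required per cell, Zeb2 turned to 1.54 and Klf4 came to 0.87 on the log2 scale. Irf8 lay at 646 CPM in HFD against 992 in WT (log2 ratio -0.62, -0.93 to -0.30), short of 2-fold.

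Ccr2, the receptor that draws cells from the blood to the chemokine Ccl2, was at a higher level in the obese libraries. It stood at 66.1 CPM in WT, 162 in DBDB 8w, 250 in DBDB 16w and 319 in HFD cDC1s, from 9, 33, 18 and 114 UMIs, with log2 ratios of 1.30 (0.20 to 2.54), 1.92 (0.69 to 3.25) and 2.27 (1.29 to 3.43). WT was the lowest, and all 3 intervals exclude 0. With 9 and 18 UMIs, WT and DBDB 16w together fall short of the 30 UMIs needed for a call. In the other cells Ccr2 stood at 37.3, 37.2, 29.8 and 106 CPM, so only HFD was raised there. Flt3 had ratios of 0.84 (-0.59 to 2.48), 1.92 (0.39 to 3.62) and 1.58 (0.35 to 3.09), given as a marker only. Tlr3, which senses double-stranded RNA, stood at 51.4 CPM in WT, 49.2 in DBDB 8w, 166 in DBDB 16w and 173 in HFD, with a UMI in 4 of 11, 9 of 29, 6 of 16 and 37 of 61 cells. No cDC2 held Tlr3. After thinning to 1000 UMIs it was seen in 1 of 11 WT, 5 of 29 DBDB 8w, 4 of 13 DBDB 16w and 16 of 61 HFD cells.

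**Figure D4:**
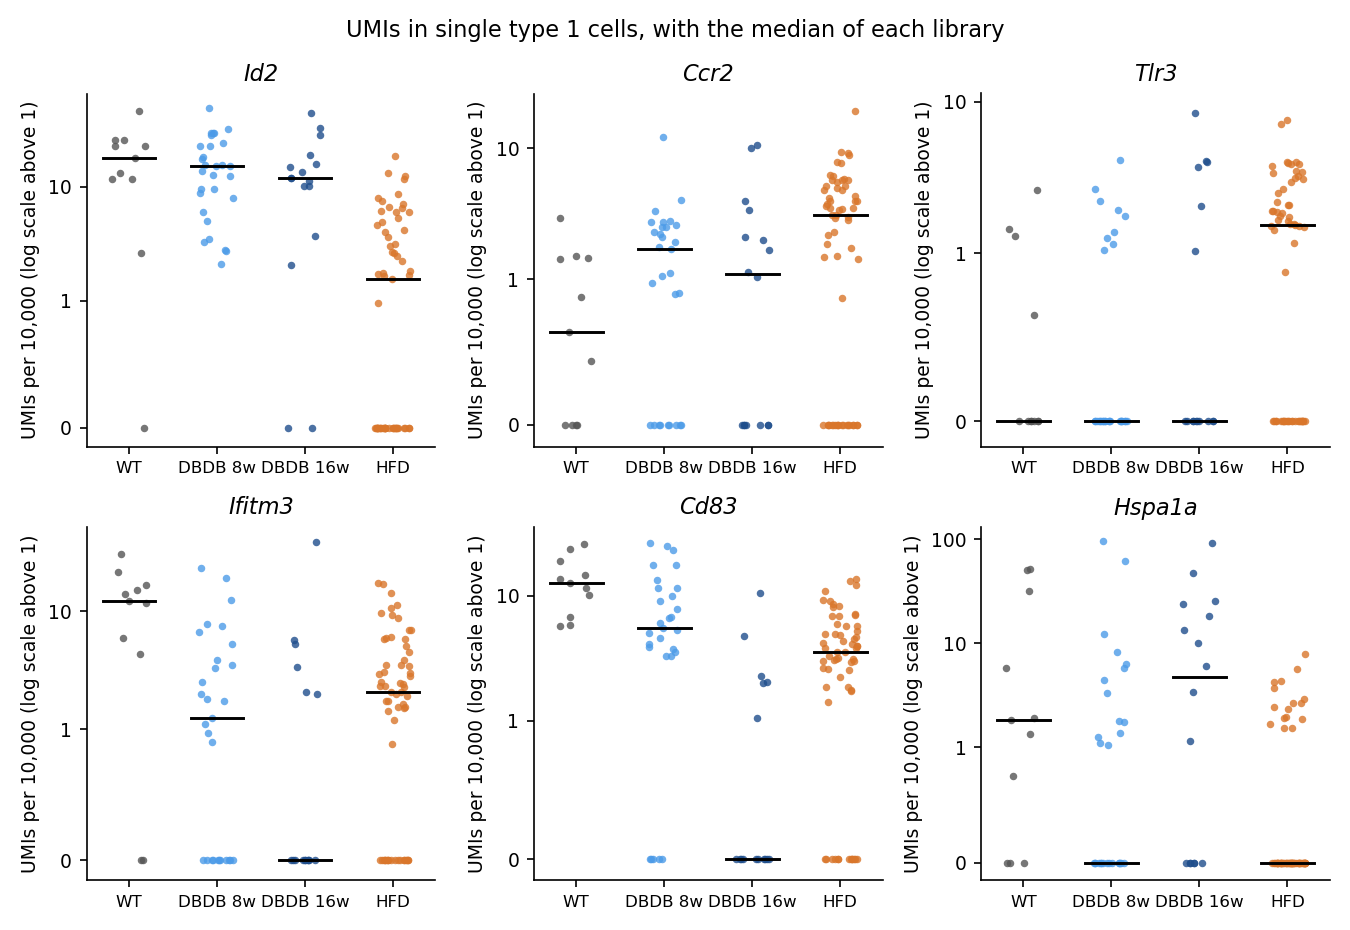
UMIs per 10000 in each cDC1 for 6 genes, by library, on an axis that is linear up to 1 and logarithmic above it; each point is a cell and each bar the median of its library. The HFD median of Id2 is 1.54, below the others at 11.9 to 17.8, and the WT medians of Cd83 (12.7) and Ifitm3 (12.2) are the highest.

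Heat-shock genes were lower in HFD for 4 of 6 measured, against 5.82% of all genes. Hspa1a, an inducible chaperone whose reads can be shared with its near-identical neighbor Hspa1b, stood at 1300 CPM in WT, 866 in DBDB 8w, 1540 in DBDB 16w and 89.4 in HFD cDC1s. The HFD value was far below the other 3 (log2 ratio -3.86, -4.45 to -3.31). The highest cell held 77 of the 177 UMIs in WT and 77 of the 176 in DBDB 8w, and without the highest cell of each library the levels were 828, 507, 1034 and 66.4 CPM. Medians per cell were 1.82 UMIs per 10000 in WT, 0 in DBDB 8w, 4.73 in DBDB 16w and 0 in HFD. Hspa1b, Dnajb1 and Hsph1 had ratios of -3.89, -3.37 and -3.40 on the log2(CPM + 10) scale. The list fell in the other cells too, from 12607 CPM in WT to 8973 in DBDB 8w, 4239 in DBDB 16w and 2995 in HFD, so the change was not particular to cDC1s.

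Lipid and lysosomal genes rose past 2-fold in HFD for 7 of 13 measured and fell for none, against 9.68% and 5.82% of all genes. Cd36, a fatty acid and dead cell receptor, stood at 140 CPM in WT, 167 in DBDB 8w, 153 in DBDB 16w and 676 in HFD, and Ctsd at 7.35, 14.8, 13.9 and 159 CPM. The HFD level was the highest for each of them, with log2 ratios to WT of 2.28 (1.60 to 3.03) for Cd36 and 4.44 (1.90 to 9.77) for Ctsd, where WT held 1 UMI. Fabp4, a fatty acid carrier of endothelial cells and adipocytes, stood at 22.0, 73.8, 69.3 and 2898 CPM and was seen in 60 of 61 HFD cells. The HFD cells with the most Fabp4 (250 and 160 UMIs) and Cd36 (37 and 34) were both predicted doublets. They held 36 and 14 UMIs of the 4 endothelial genes. Of the 11 HFD cells with endothelial RNA, 5 were among the 6 predicted doublets.

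The same genes were abundant around these cells. The lipid list summed to 8622 CPM in the other WT cells and 34586 in the other HFD cells, and Fabp4 alone to 11925 CPM there. Across the settings tried, which included leaving out the 11 cells with endothelial RNA, the HFD log2 ratio of Cd36 lay between 1.48 and 2.32 and that of Fabp4 between 4.84 and 6.98. In DBDB 16w, by contrast, the other cells read 36365 CPM of the list while cDC1s read 1581, below their WT sum of 2549. The part of free RNA and of attached endothelial cells in the HFD values was not tested.

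Maturation genes were lowest in DBDB 16w. The list of 19 summed to 3225 CPM in WT, 1855 in DBDB 8w, 347 in DBDB 16w and 1436 in HFD cDC1s. Its 3 measured genes in DBDB 16w, Cd83, Traf1 and Cd86, were all lower, against 25.6% of all genes. Cd83 (195 UMIs in WT, 12 in DBDB 16w) and Traf1 (68 and 5) passed the filter by their WT UMIs. The count is therefore no support for a change of the list. Traf1 came to -0.85 when cells were weighted equally. Cd83, which steadies MHC class II on the surface, stood at 1433 CPM in WT, 758 in DBDB 8w, 166 in DBDB 16w and 414 in HFD. WT was the highest and DBDB 16w the lowest, with log2 ratios of -0.92 (-1.23 to -0.61), -3.11 (-4.08 to -2.27) and -1.79 (-2.11 to -1.48). In the other cells Cd83 went from 305 CPM in WT to 558, 61.5 and 155 CPM, so DBDB 16w was the lowest there as well.

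Immediate-early genes followed suit in DBDB 16w, where 8 of 9 measured were lower and none higher, against 25.6% of all genes lower. In DBDB 8w, 0 of 9 were past 2-fold. Fosb stood at 801 CPM in WT, 517 in DBDB 8w, 27.7 in DBDB 16w and 1207 in HFD cDC1s. The list summed to 7656, 6476, 2677 and 6509 CPM in cDC1s and to 17000, 11466, 4206 and 10649 CPM in the other cells. Its level in DBDB 16w was thus the lowest in both. In HFD, Egr1 rose from 80.8 to 542 CPM while 2 other genes of the list fell.

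Il1b, the inflammatory cytokine, was also nearly absent from DBDB 16w cDC1s, with 3 UMIs against 279 in WT, 334 in DBDB 8w and 145 in HFD. Its level was 2050 CPM in WT, 1644 in DBDB 8w, 41.6 in DBDB 16w and 405 in HFD. A single WT cell gave 148 of the WT UMIs, and without it WT read 1066 CPM. The HFD log2 ratio of Il1b ranged from -2.70 to -0.67 over the settings tried and that of DBDB 8w from -0.60 to 1.5. That cell held 13247 UMIs, no Irf8 or Id2, 2 UMIs of Clec9a and 2 of Cd209a, so its type is less certain than that of the others. It also carried 95 of 99 Ccl4 and all 29 Ccl5 UMIs of WT.

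The type I interferon genes, summed as a list, were highest in WT. The type I interferon list summed to 2072 CPM in WT, 600 in DBDB 8w, 583 in DBDB 16w and 492 in HFD cDC1s. All of its 3, 1 and 3 genes measured in the obese libraries were lower, against 4.95%, 25.6% and 5.82% of all genes. The 1 gene in DBDB 16w was Ifitm3, with 165 UMIs in WT and 27 in DBDB 16w. Genes high in WT alone can enter these counts, so the counts are no support. Ifitm3, which blocks viral entry, made up most of the list sum, at 1212, 408, 374 and 310 CPM. Its log2 ratios were -1.57 (-1.97 to -1.18), -1.69 (-2.34 to -1.10) and -1.97 (-2.33 to -1.61). With 3 marker UMIs required, Ifitm3 in DBDB 8w came to -0.90. The list was also highest in WT among the other cells, at 1837 CPM against 1172, 676 and 1161. Irf7 rested on 1 WT cell with 21 of the 25 UMIs. The 10 interferon-gamma targets went otherwise, at 191 CPM in WT, 187 in DBDB 8w, 125 in DBDB 16w and 347 in HFD cDC1s. Their log2 ratio of HFD to WT was 0.86 (0.24 to 1.53). They were highest in HFD among the other cells too, at 767 CPM against 591 in WT.

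B2m, the light chain of MHC class I, stood at 1345 CPM in WT, 404 in DBDB 8w, 444 in DBDB 16w and 897 in HFD cDC1s, and H2-D1 at 1918, 1019, 999 and 908 CPM. Both were highest in WT. The log2 ratios of B2m were -1.74 (-2.13 to -1.35), -1.60 (-2.19 to -1.05) and -0.58 (-0.85 to -0.31). In the other cells B2m was also highest in WT, at 1933 CPM against 946, 965 and 1260. Psmb8 went the other way in cDC1s, at 331 CPM in WT and 566, 693 and 584 CPM in the obese libraries, with all 3 intervals above 0. Of the cross-presentation and class I list, 1 of 14 genes was lower in DBDB 8w, 3 of 11 in DBDB 16w and 1 of 15 in HFD. Of all genes, 4.95%, 25.6% and 5.82% were lower there. In DBDB 16w 1 gene of the list was higher, against 9.45% of all genes. The list medians were -0.02, -0.22 and 0.20, close to those of all genes, 0.01, -0.21 and 0.09.

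Glycolysis genes summed to 1205 CPM in WT, 1201 in DBDB 8w, 1110 in DBDB 16w and 1132 in HFD cDC1s, with no gene past 2-fold. Oxidative phosphorylation summed to 3270, 3715, 4938 and 3365 CPM, with 1 gene higher in each obese library and none lower. Its median ratio in DBDB 16w was 0.64 against -0.21 for all genes. In the other cells it summed to 2054, 3246, 6769 and 3525 CPM, so DBDB 16w was the highest there as well. The cDC1 markers had 0 of 9 genes past 2-fold in DBDB 8w, 1 of 8 in DBDB 16w and 3 of 12 in HFD. Of all genes, 9.55%, 35% and 15.5% were past it. Plac8, found in precursors and monocytes, stood at 456 CPM in WT and at 73.8, 125 and 53.1 CPM in DBDB 8w, DBDB 16w and HFD, and it was likewise highest in WT in the other cells, at 470 CPM against 12.7 to 53.1.

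Genes that moved the same way in all 3 obese libraries, and were at least as high in cDC1s as in the other cells of the library where they peaked, were ranked by their smallest change. The 8 highest included the cell cycle genes Top2a, Hist1h1b, Pclaf and Smc2. Hist1h1b, a linker histone, had 2 UMIs in WT, 47 in DBDB 8w, 23 in DBDB 16w and 46 in HFD, and Top2a had 0, 15, 5 and 45. The other 4 were Selenoh, Trafd1, Smim10l1 and Ndufv2, each with 1 to 3 UMIs in WT. These WT counts are too low for a fold to be read.

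The 8 lowest were Ccl5, Ccl4, Irf7, Ehd1, Tnfsf9, Rnf141, Samhd1 and Ltb4r1. Samhd1, which depletes nucleotides and restricts retroviruses, stood at 426 CPM in WT, 113 in DBDB 8w, 97.1 in DBDB 16w and 129 in HFD. In the other cells it stood at 255, 141, 94.9 and 154 CPM, and in cDC2s at 340, 171, 60.8 and 158 CPM. WT was thus the highest there as well. Ltb4r1, the leukotriene B4 receptor, stood at 191, 54.1, 13.9 and 11.2 CPM in cDC1s, and its WT level without the highest cell was 150 CPM. WT was the highest for both genes in cDC1s by the way they were chosen. Of 53 UMIs of Tnfsf9 in WT, 35 came from 1 cell. With at least 3 marker UMIs required, Ccl5 in HFD (1.51), Ccl4 in DBDB 8w (1.23) and HFD (0.85) and Tnfsf9 in DBDB 8w (1.56) turned higher than WT.

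A few cDC1s were in division. Of the 117, 9 held 13 to 62 UMIs of the 14 cell cycle genes, 4 in DBDB 8w, 1 in DBDB 16w and 4 in HFD, and the next highest cell held 4. All other cells were thus clearly apart, 78 of the 108 with none. All 9 held Naaa, 8 held Irf8, and none was a predicted doublet, but 5 held only the minimum of 2 marker UMIs. They carried 97 of the 118 UMIs of Hist1h1b.

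To compare libraries, cells were thinned to 1000 UMIs and counted as cycling with at least 2 cell cycle UMIs. This gave 0 of 11 cDC1s in WT (up to 28.5%), 3 of 29 in DBDB 8w (10.3%), 1 of 13 in DBDB 16w (7.69%) and 4 of 61 in HFD (6.56%), and without thinning 18.2%, 17.2%, 12.5% and 11.5%. All 3 differences from WT had intervals that include 0, so no difference in cycling was detectable. With at least 3 marker UMIs required, the differences were 0 points in DBDB 8w, 20 in DBDB 16w and 6.67 in HFD. C1q macrophages gave 1.36%, 2.67%, 4.01% and 4.64% after thinning. cDC2s gave 1 of 17 (5.88%), 2 of 19 (10.5%), 1 of 3 (33.3%) and 1 of 44 (2.27%).

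**Figure D5:**
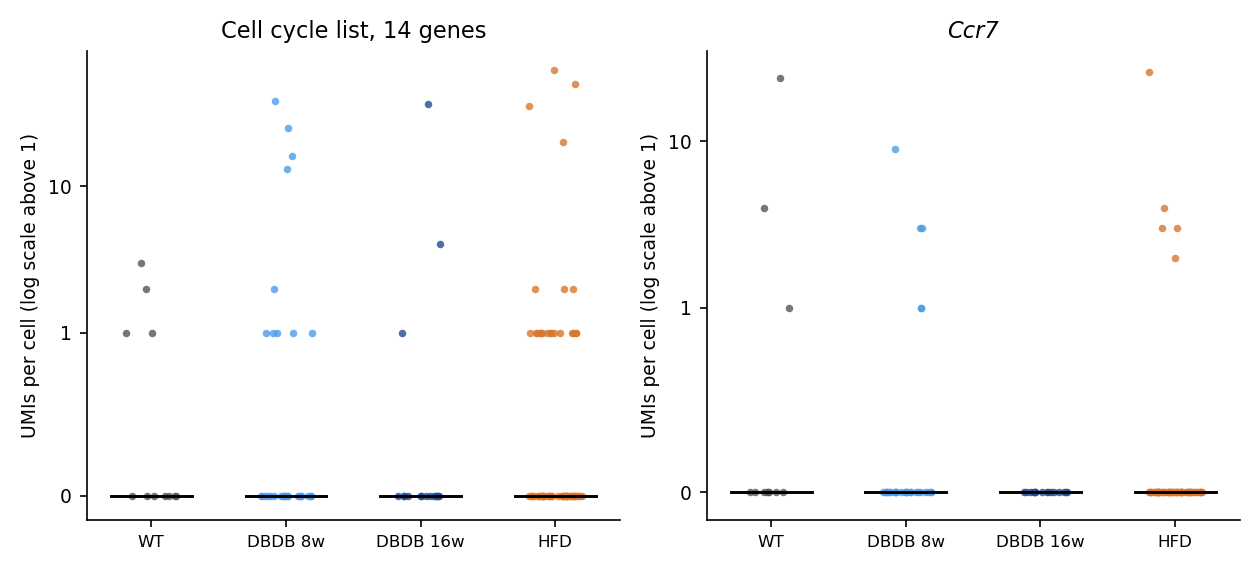
UMIs of the 14 cell cycle genes (left) and of Ccr7 (right) in each cDC1, by library, on an axis that is linear up to 1 and logarithmic above it; each point is a cell and each bar the median of its library. A group of 9 cells with 13 to 62 cell cycle UMIs stands apart from the rest on the left, and 13 cells hold Ccr7 on the right, none in DBDB 16w.

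A further 13 cells held Ccr7, 3 in WT, 5 in DBDB 8w, 0 in DBDB 16w and 5 in HFD, and none of them was among the 9 in division. All 13 held Cd83, 11 held the signal adaptor Traf1, 7 the chemokine Ccl22 and 12 Irf8. The top 3 cells had 59 of the 84 Ccr7 UMIs. In DBDB 16w, the shallowest of the 4 libraries, 0 of 16 allows up to 20.6% of cells with a Ccr7 UMI, which is no limit on cells that express it.

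Il12b, the shared chain of IL-12 and IL-23, was held by 8 cells, and 42 of its 56 UMIs came from 1 DBDB 8w cell, which also held 49 UMIs of Il1b, 10 of Ccl22 and 7 of the 3 rule markers. Xcl1, the ligand of Xcr1, came to 38 UMIs in 1 HFD cell, with 2 UMIs of Clec9a, no Xcr1 and 3 UMIs of NK cell genes, and was at 0 in all other cDC1s. Of 658 hemoglobin UMIs in DBDB 8w cDC1s, 655 lay in 2 cells. Sums over cDC1s of these genes therefore stand for 1 or 2 cells.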

How the data were processed

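Single-cell libraries of BAT SVF from WT, DBDB 8w, DBDB 16w and HFD mice were analyzed, 1 library per group. The authors deposited raw UMI counts for each gene in each barcode, made from 10x Genomics 3′ libraries, with Cell Ranger 7.1.0 on mm10 by the submitters' processing notes and 6.0.0 by the file headers. Quality limits were 250 and 6000 genes, 500 and 30000 UMIs, and 15% mitochondrial UMIs per cell, with cells at a limit left out. Cells were named by the rule given in the text, without clustering or integration. Doublets were ranked with Scrublet in scanpy 1.11.5 and taken down to 0.8% per 1000 barcodes, since its automatic threshold called 56, 0, 178 and 486 cells; they were kept, and 6 cDC1s, all in HFD, were among them. Levels are summed UMIs in CPM. Summed UMIs over cDC1s were 136106, 203209, 72100 and 357822 in WT, DBDB 8w, DBDB 16w and HFD. Shares have exact binomial, levels exact Poisson and ratios conditional binomial 95% intervals.

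cDC1s and cDC2s were compared with edgeR 4.0.16 in R 4.3.3 (quasi-likelihood test, library term, two-sided, Benjamini-Hochberg over all genes tested). The edgeR fit was first tested on simulated counts with known changes. DESeq2 1.42.0 was an alternative. Coordinates are of GRCm38. The 32 gene lists hold 277 genes, of which 276 were in the files. Against WT, genes were named by rule: 8 higher and 8 lower with the largest smallest ratio over 3 libraries. Their ratios had to be of the same sign in all 3. Against cDC2s, the 10 higher and 10 lower with the largest change were named. These had to be called, in the same direction in all 4 libraries, with at least 100 CPM on average in the higher type. Members and lists were chosen with earlier results of these data known. Other settings were another marker minimum, thinning, doublets removed, other denominators, filters, constants and scalings; leaving out cells with endothelial RNA, the mean of the cells' own CPM, and TMM for single genes were added after the data were seen. A gene that these rules would name, and some members of the lists, are not reported here.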

Additional observations from a re-analysis of the deposited data

Results flagged for a closer look

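In the HFD library, 11 barcodes over the limit of 15% mitochondrial UMIs met every other part of the cDC1 rule, of 11948 over that limit only (0.0921%, 0.0460 to 0.165). None did among 1615 such barcodes in WT (up to 0.228%), 6166 in DBDB 8w (up to 0.0598%) and 55 in DBDB 16w (up to 6.49%). These barcodes lie outside the comparisons of the text, and were noted because WT had none, although the WT limit lies above the HFD share, so no excess over WT was detectable. Median mitochondrial content of the cDC1s inside the limit was 2.77% in WT, 3.66% in DBDB 8w, 0.488% in DBDB 16w and 9.18% in HFD.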

How the results depend on the processing

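No paired analysis was possible because each group had 1 library and the labels carry no replicate numbers, as far as groups are compared; cDC1s and cDC2s of a library were paired by the library term. The HFD share less that of WT was 0.184 points at 1000 UMIs, 0.169 at 2000, 0.268 with the mitochondrial limit lifted and 1.28 over Ptprc cells. As folds over WT these were 11.5, 2.49, 2.84 and 2.39. Over Ptprc cells DBDB 8w and DBDB 16w gave -0.163 and -0.297 points. The cDC1 share of both subsets in DBDB 8w less WT was 46.7 points at 1000 UMIs. Cycling differences had intervals including 0 under all 5 alternatives, and ranged from 0 to 13.8 points in DBDB 8w, 0 to 20 in DBDB 16w and 3.28 to 8.20 in HFD.

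Counts of 2-fold genes followed the filter. With at least 60 UMIs, DBDB 8w had 18 higher and 32 lower, DBDB 16w 40 and 89, and HFD 72 and 62. With at least 10 UMIs they were 344 and 266, 246 and 718, and 767 and 353. With 3 marker UMIs 40 genes were higher in DBDB 8w, with TMM 113 in DBDB 16w, and without cells with endothelial RNA 141 in HFD.

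Against cDC2s, DESeq2 called 106 genes higher and 123 lower, and the fit with no library term 57 and 74. With each library left out in turn the numbers were 102 to 203 higher and 101 to 211 lower. Without WT they were 115 and 119, without DBDB 8w 102 and 117, without DBDB 16w 203 and 211, and without HFD 137 and 101.

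A minimum of 3 marker UMIs leaves out 2 WT cells, among them the Il1b-rich cell, and turned Ccl5 in HFD (1.51), Ccl4 in DBDB 8w (1.23) and HFD (0.85), Tnfsf9 in DBDB 8w (1.56), Zeb2 in HFD (1.54), Marcksl1 in DBDB 8w (0.27) and Mki67 in DBDB 8w (-0.15).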
